A study of Mus musculus with 27 samples.

Results

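Layer 6b subplate type neurons made up 372 of the 241266 nuclei kept from 27 mouse hippocampal libraries, or 0.154%. They were chosen by a gate on measured transcripts. A nucleus was taken when it held 200 to 8000 genes and at most 5% mitochondrial UMIs (unique molecular identifiers, each standing for 1 captured RNA molecule), at least 1 UMI of the excitatory genes Slc17a7 and Camk2a together, and at least 2 of the 3 markers Cplx3, Nxph4 and Ctgf. Nuclei with more than 1 UMI of the inhibitory genes Gad1 and Gad2, of the myelin genes Mog and Mag, or of the granule cell gene Prox1 were left out. The values of these 10 genes therefore describe the gate and are not findings.

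Layer 6b is the deepest layer of the neocortex, a thin sheet above the white matter that is thought to hold surviving neurons of the fetal subplate. The subplate is among the first neuron populations of the developing cortex and receives thalamic axons before they enter the cortical plate. In the adult, layer 6b neurons are excitatory, project within the cortex and to higher-order thalamus, and are known for responding to the wake-promoting peptide orexin. Their nearest neighbours are the corticothalamic neurons of layer 6 proper. The libraries are labelled as hippocampus, and both types are best known from the cortex that lies over it.

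The study crossed mice carrying P301S tau with mice lacking Cgas, the gene of a cytosolic DNA sensor that drives interferon responses through STING. The transgene is a human tau with the P301S mutation, driven by the mouse prion promoter, and the Cgas deletion is germline, so it is present in every cell. Single-nucleus RNA-seq was made from the hippocampus of mice without P301S that were Cgas+/+ (n = 5; 3 male, 2 female), Cgas+/- (n = 2, both male) or Cgas-/- (n = 2, both male), and of P301S mice that were Cgas+/+, Cgas+/- or Cgas-/- (n = 6 each; 3 male, 3 female). The labels give no age, and 1 library was made per mouse. The comparisons over mice all use the P301S Cgas+/+ group. It was set against Cgas+/+ mice for the transgene, called the tau contrast. The P301S mice that were Cgas-/- were set against it for the loss of both copies, called the deletion contrast, and those that were Cgas+/- for the loss of 1 copy, called the heterozygous contrast.

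The libraries held 7217 to 14758 kept nuclei, with a median of 2233 to 9041 UMIs per nucleus. The software version in the file headers was 3.0.2 in 12 libraries, all from males, and 3.1.0 in the other 15, which held all the females. No barcode of a Layer 6b type nucleus was shared between any of the 351 pairs of libraries. The Layer 6b type nuclei held 5208394 UMIs in all, with a median of 13358 UMIs (range 3198 to 51442) and 3638 genes (range 1590 to 6768) per nucleus. Mitochondrial UMIs were a median of 0.0182% of a nucleus. Cplx3 (chromosome 9, 57599992 to 57606281), Nxph4 (chromosome 10, 127525473 to 127534559) and Ctgf (chromosome 10, 24595442 to 24598683, positions in mm10) were mostly low. Together they had a median of 3 UMIs per nucleus and a highest value of 13.

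Of the 372 nuclei, 188 held Cplx3 and Ctgf without Nxph4, 109 held Nxph4 and Ctgf without Cplx3, 21 held Cplx3 and Nxph4 without Ctgf, and 54 held all 3. Ctgf, which encodes a secreted matricellular protein, was found in 94.4% of them, Cplx3, a complexin that acts on vesicle release, in 70.7%, and Nxph4, a secreted ligand of neurexins, in 49.5%. Where it was found, Cplx3 was at a median of 1 UMI and a highest value of 4, Nxph4 at a median of 1 and a highest value of 3, and Ctgf at a median of 2 and a highest value of 10. Just inside the gate, 102 nuclei (27.4%) passed with 2 marker UMIs in total. Just outside it, 1445 excitatory nuclei held 1 of the 3 markers, and 106425 held none. Oligodendrocyte type, inhibitory and granule type nuclei, which should lack the pair, held at least 2 of the markers in 10 of 44972, 4 of 19860 and 4 of 18887 cases, or 0.0222%, 0.0201% and 0.0212%. The oligodendrocyte type nuclei had a median of 1605 to 2986 UMIs per mouse, below the 3198 UMIs of the shallowest Layer 6b type nucleus. Their rate therefore says little of how specific the gate was.

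A list of 10 layer 6b markers that the gate did not use was then read in the same nuclei. Each of the 372 nuclei held at least 3 of the 10, with a median of 7, and 358 (96.2%) held 5 or more. The median was 5 of 10 in the nuclei with 1 gate marker, of which 53.4% held 5 or more. It was 2 in layer 6 corticothalamic type nuclei, 2 in excitatory nuclei with no gate marker, 3 in inhibitory, 3 in granule type and 1 in oligodendrocyte type nuclei. Layer 6 corticothalamic type nuclei were taken through the same gates with fewer than 2 of the 3 markers and at least 2 of Foxp2, Syt6 and Rprm (3672 nuclei). Deeper nuclei show more genes, and the gate favours them. Over the 15 mice with at least 10 Layer 6b type nuclei, the median per mouse was 10276 to 19518 UMIs in Layer 6b type and 7726 to 13246 in layer 6 corticothalamic type nuclei, and it was higher in Layer 6b type in 15 of 15.

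**Figure D1:**
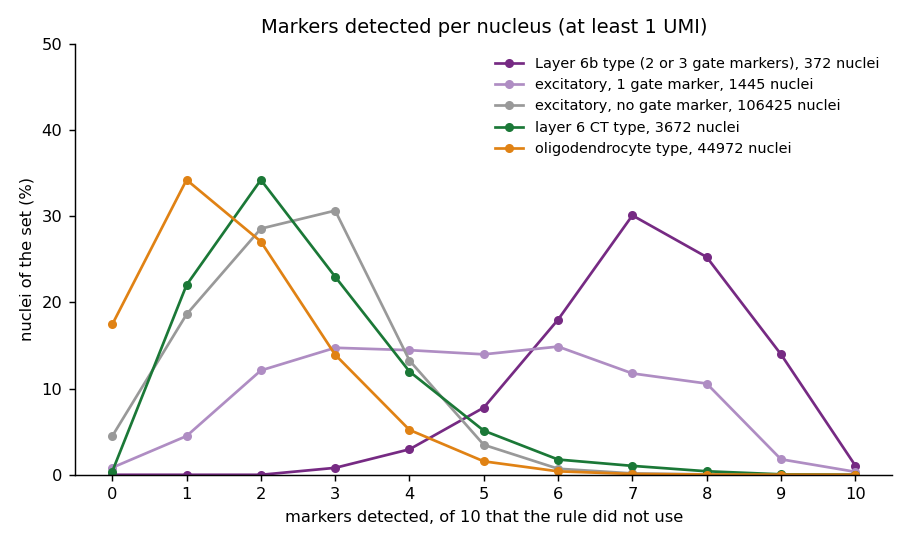
Share of nuclei (y axis, % of each set) by how many of 10 layer 6b markers outside the gate were detected (x axis), for 5 sets of nuclei drawn as lines. Layer 6b type nuclei peak at 7 markers, nuclei with 1 gate marker spread between 0 and 10, and the corticothalamic, marker-free and oligodendrocyte type sets peak at 1 to 3.

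The 10 markers were next compared as levels. Levels are CPM, the UMIs of a gene over all UMIs of the nuclei of a set in a mouse, scaled to a fixed total, and are given as mean ± SD over the 15 mice. They describe the gated set and were not tested, since the gate chose the nuclei on measured values. All 10 were higher in Layer 6b type than in the other 107870 excitatory nuclei in 15 of 15 mice, and 6 of 10 were higher than in layer 6 corticothalamic type nuclei in 15 of 15. Of 6211 genes at 20 CPM or more in either set, 7.08% were higher and 12.8% lower in every mouse than in the other excitatory nuclei. Of 6065 genes, 4.77% were higher and 8.11% lower in every mouse than in the layer 6 corticothalamic type nuclei. The median log2 ratio of the 10 markers was 2.77 against corticothalamic type and 2.56 against other excitatory nuclei, and that of all genes was -0.11 and -0.10.

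Moxd1, a copper-dependent monooxygenase-like protein, was at 242 ± 108 CPM in Layer 6b type nuclei, 1.1 ± 1.3 CPM in layer 6 corticothalamic type and 3.6 ± 1.3 CPM in other excitatory nuclei. It lies on chromosome 10 (24223517 to 24302790), 292.7 kb from the gate gene Ctgf. By mouse, Moxd1 was at 202, 373 and 541 CPM in Cgas+/+, at 151 and 238 in P301S Cgas+/+, at 136, 253, 143, 356 and 152 in P301S Cgas+/-, and at 236, 180, 204, 251 and 217 in P301S Cgas-/-. The lowest of these is far above the highest corticothalamic type value of 4.6 CPM, and the 4 genotypes overlap. Moxd1 was detected in 64.2% of Layer 6b type nuclei and in 1.20% of corticothalamic type nuclei. In oligodendrocyte type nuclei, at a median of 1605 to 2986 UMIs per mouse, it was found in 0.889%. It was found in 17.1% of inhibitory and 8.66% of granule type nuclei.

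Tmem163, a vesicular zinc transporter, was at 829.1 ± 153 CPM against 48.4 ± 35.3 in corticothalamic type and 49.3 ± 15.3 in other excitatory nuclei. Its values over the 15 mice ran from 523 to 1045 CPM. Inpp4b, a phosphoinositide phosphatase, was at 1974 ± 374 CPM against 122 ± 41.4 in corticothalamic type. Svil, which links actin to membranes, was at 529 ± 200 CPM against 59.2 ± 40.9. Kcnab1, an accessory subunit of voltage-gated potassium channels, was at 2735 ± 460 CPM against 292 ± 142, and Drd1, the D1 dopamine receptor, at 36.7 ± 10.8 against 6.1 ± 5.1. For these 5 genes the lowest Layer 6b type mouse was above the highest corticothalamic type mouse.

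The margins were smaller for 3 of the list. Nr4a2, a nuclear receptor used as a subplate marker, was at 99.7 ± 44.1 CPM against 61.7 ± 37.7 in corticothalamic type nuclei. Lpar1, a lysophosphatidic acid receptor, was at 82.6 ± 34.0 against 28.5 ± 17.7, and Hcrtr2, an orexin receptor, at 84.7 ± 29.2 against 45.6 ± 19.5. Each of the 3 was higher in 14 of 15 mice, and their ranges overlapped. Zfpm2, a cofactor of GATA factors, went the other way, at 863 ± 137 CPM against 1473 ± 166, and was lower in 15 of 15 mice. It was above the other excitatory nuclei, which held 509 CPM. In nuclei thinned to 2000 UMIs and pooled over mice, Zfpm2 was at 1044 CPM in Layer 6b type and 1130 CPM in corticothalamic type nuclei, on 23 Layer 6b type nuclei. In the same nuclei Moxd1 was at 304 against 2.0 CPM, Tmem163 at 891 against 23.2, Nr4a2 at 109 against 23.7, Lpar1 at 109 against 14.3, Drd1 at 43.5 against 14.3 and Hcrtr2 at 43.5 against 34.1 CPM. With 2000 UMIs in each of the 23 nuclei, the lowest of these levels rest on a few UMIs, and no order was read from them.

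**Figure D2:**
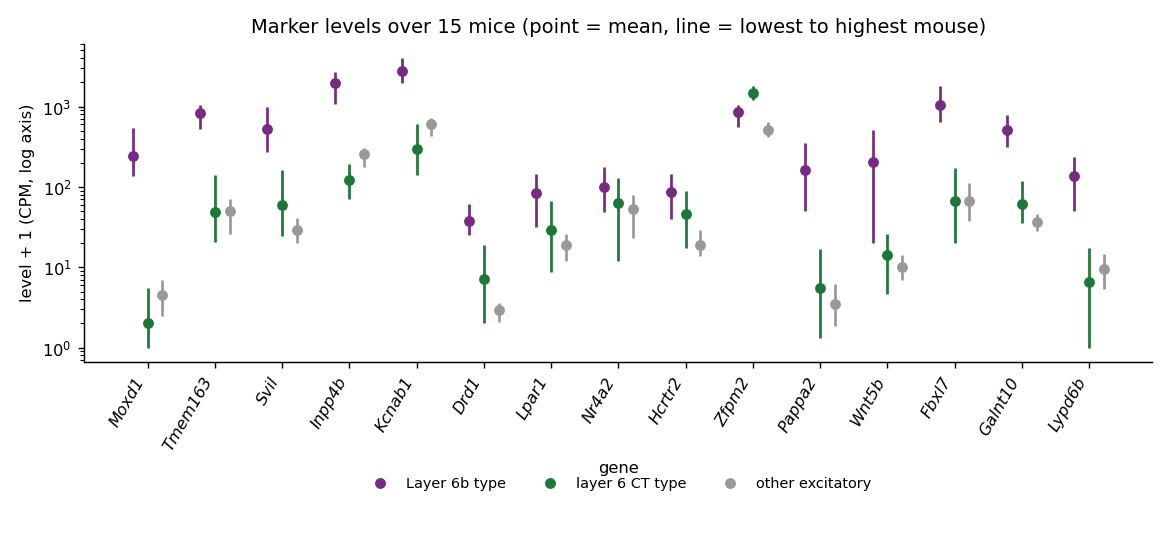
Levels of 15 genes (y axis, CPM plus 1, log axis) in Layer 6b type, layer 6 corticothalamic (CT) type and other excitatory nuclei. Points are means and lines run from the lowest to the highest of 15 mice. Layer 6b type lies above corticothalamic type for 14 of the 15 genes, and Zfpm2 lies below it.

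Markers of other cell types were mixed. The 7 astrocyte markers summed to 1685 CPM, above the 1037 CPM of corticothalamic type and the 1453 CPM of other excitatory nuclei. The glutamate transporter Slc1a2 was at 1199 ± 164 CPM against 839 CPM in corticothalamic type and 621 CPM in other excitatory nuclei. The glypican gene Gpc5 was at 469 ± 168 CPM against 202 and 573 CPM, and was found in 59.7% of Layer 6b type and 27.6% of corticothalamic type nuclei. Both were higher than in corticothalamic type nuclei in 15 of 15 mice. Gfap was at 2.9 CPM, Aqp4 at 0.79 and Gja1 at 1.9, each with a mean below that of both other sets. The 5 oligodendrocyte markers outside the gate summed to 24.3 to 88.5 CPM per mouse, below the 141 CPM of corticothalamic type nuclei pooled over mice. The endothelial gene Cldn5 had 0 UMIs in Layer 6b type nuclei. The 7 choroid plexus and vascular markers summed to 4.8 CPM pooled over mice, with 4 of the 7 at 0. The 5 upper layer markers summed to 40.7 CPM, against 370.5 CPM in other excitatory nuclei. The 6 Lamp5 interneuron markers summed to 133 CPM, above the 44.5 CPM of corticothalamic type nuclei, and most of this sum was Reln. Reln was found in 35.8% of Layer 6b type and 6.6% of corticothalamic type nuclei. Sv2c (19.6% and 8.9%) and Id2 (10.2% and 5.1%) went the same way as Reln. Lamp5 itself went the other way, at 2.7% and 6.7%. Npy (0% and 0.30%) and Ndnf (0.54% and 0.65%) were rare in both. The list was therefore mixed, and its sum does not stand for every member. The 5 inhibitory markers outside the gate summed to 49.7 CPM against 162 in corticothalamic type nuclei. The CA1 pyramidal markers summed to 956 CPM and those of layer 5 to 578 CPM, against 1391 and 963 CPM in corticothalamic type nuclei. The 6 layer 6 corticothalamic markers were not absent. Rprm was at 0 CPM and Syt6 at 9.5 ± 8.4 CPM, while Foxp2 was at 88.0 ± 50.2 CPM against 550 ± 126 in corticothalamic type nuclei, which were chosen on these genes. Tle4, a corepressor of deep layer neurons, was at 602 ± 93.5 against 364 ± 52.1 CPM, and Ntsr1, the neurotensin receptor gene often used to mark corticothalamic neurons, at 45.9 ± 13.3 against 17.0 ± 5.8. Both were higher in Layer 6b type nuclei in 15 of 15 mice. The nuclei thus held the markers of the label together with part of those of its nearest neighbour.

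Among all genes at 20 CPM or more and higher in every mouse, those with the largest ratio to other excitatory nuclei were, in order, Moxd1, Pappa2, Wnt5b, C130073E24Rik, Myocd, Gm45341, Svil, Nfe2l3, Gm45323 and Col24a1. Pappa2, a protease that cleaves insulin-like growth factor binding proteins, was at 159 ± 97.0 CPM against 2.5 ± 1.2. The secreted ligand Wnt5b was at 203 ± 136 against 9.2 ± 2.2, and the transcriptional coactivator Myocd at 87.8 ± 36.6 against 3.7 ± 1.2. Nfe2l3, a leucine zipper factor, was at 107 ± 33.9 against 5.2 ± 2.1, and the collagen gene Col24a1 at 123 ± 59.9 against 6.3 ± 2.5. The next 10 were Tmem163, 1700047F07Rik, Fbxl7, Gm45321, Gm2516, Lypd6b, Galnt10, Gm12295, Drd1 and AC121517.1. Of these, Fbxl7, an F-box protein, was at 1044 ± 276 against 65.6 ± 22.8 CPM, and Galnt10, which starts O-glycosylation, at 509 ± 125 against 36.2 ± 5.3. Lypd6b, of a family that acts on nicotinic receptors, was at 135 ± 54.4 against 8.5 ± 2.6. Several of the 20 are transcripts of no described role, and how the counting shared reads between overlapping genes was not tested.

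Against layer 6 corticothalamic type nuclei the first 10 included Moxd1, 1700047F07Rik, Pappa2, Gm45341, C130073E24Rik, Gm45323, Lypd6b, Adgrg6 and Gm45321. The adhesion receptor Adgrg6 was at 99.4 ± 36.9 CPM against 4.2 ± 2.7. The 10 with the lowest ratio were Col5a1, Blnk, Col6a1, Syt6, Serinc2, Rtn4r, Adgrd1, Fbln2, Kcnh8 and Gabrg3. Syt6 is among the genes on which the corticothalamic type nuclei were chosen, so its place is not a finding. The collagens and Fbln2 are matrix genes. Col5a1 was at 4.5 ± 5.6 against 121 ± 30.6 CPM, Col6a1 at 2.1 ± 3.7 against 58.1 ± 31.2, and Fbln2 at 1.9 ± 2.7 against 37.8 ± 9.8. Rtn4r, the Nogo receptor, was at 1.7 ± 3.5 against 39.9 ± 11.7 CPM. Gabrg3, a subunit of GABA-A receptors, was at 65.7 ± 45.6 against 819 ± 212 CPM.

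Of 18 cortical layer transcription factors measured, 2 were higher and 7 lower than in corticothalamic type nuclei in every mouse, with a median log2 ratio of -0.47. The list holds Foxp2, on which the corticothalamic type nuclei were partly chosen. Sox5, a regulator of subplate and corticofugal neurons, was at 398 ± 85.1 against 739 ± 99.2 CPM, and Foxp1 at 219 ± 62.7 against 462 ± 85.0. Rorb, a layer 4 factor, was at 12.5 ± 23.2 against 73.5 ± 41.2, and Etv1, a layer 5 factor, at 9.5 ± 5.6 against 33.3 ± 16.7. Mef2c, an activity-dependent factor, was at 327 ± 135 against 423 ± 168 CPM and was lower in 12 of 15 mice.

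Neuromodulator and peptide receptors moved in both directions. Of 21 measured, 5 were higher and 4 lower than in corticothalamic type nuclei in every mouse, with a median log2 ratio of 0.55. The 5 were Drd1, Ntsr1, Htr2a, Htr7 and Oprm1. The serotonin receptor Htr2a was at 114 ± 72.3 CPM against 6.5 ± 8.1, with a range of 29.9 to 255 over the mice. Htr7, also a serotonin receptor, was at 31.3 ± 22.4 against 4.2 ± 3.5. Oprm1, the mu opioid receptor, was at 258 ± 46.1 against 76.2 ± 24.0 CPM and was found in 92.2% of Layer 6b type nuclei, 50.5% of corticothalamic type nuclei and 2.66% of oligodendrocyte type nuclei. The 4 lower ones were Htr4, Vipr1, Cnr1 and Oprd1. The serotonin receptor Htr4 was at 5.1 ± 6.6 against 69.1 ± 23.3 CPM, and the cannabinoid receptor Cnr1 at 3.6 ± 5.8 against 23.7 ± 5.9. The orexin receptor Hcrtr1 was at 0.86 CPM, so that of the orexin receptors Hcrtr2 was the one above 20 CPM.

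**Figure D3:**
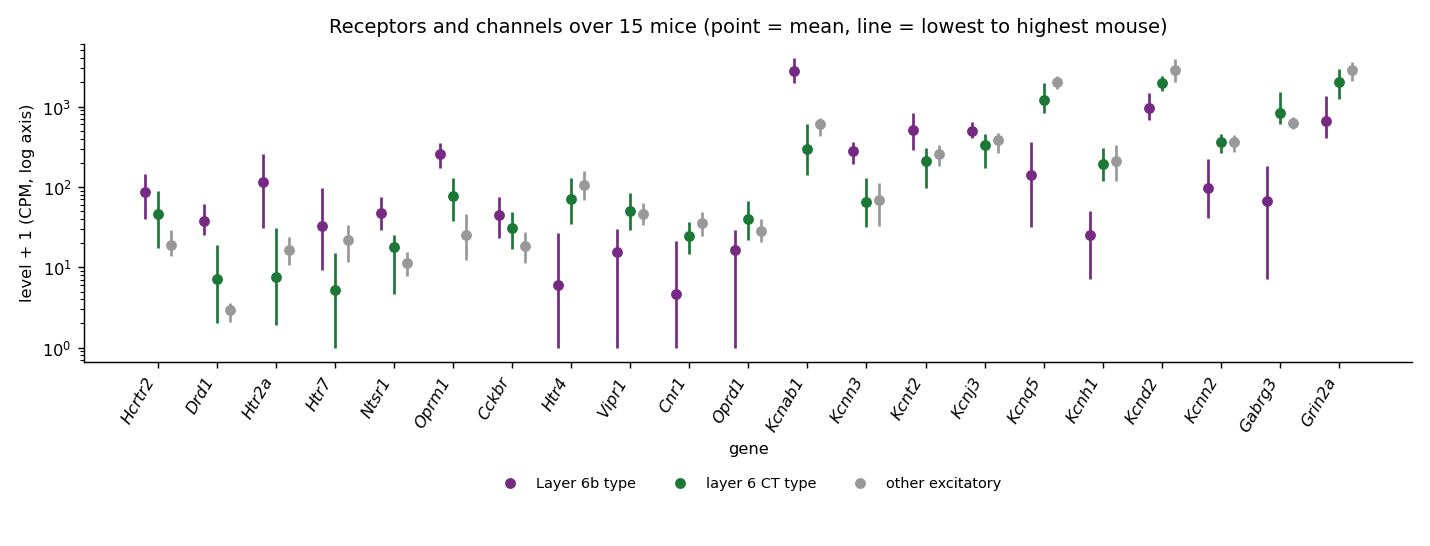
Levels of 21 receptor and channel genes (y axis, CPM plus 1, log axis) in Layer 6b type, layer 6 corticothalamic (CT) type and other excitatory nuclei. Points are means and lines run from the lowest to the highest of 15 mice. Drd1, Ntsr1, Oprm1, Kcnab1, Kcnn3 and Kcnj3 lie above corticothalamic type, and Htr4, Kcnq5, Kcnh1, Gabrg3 and Grin2a lie below it.

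Of 33 potassium and HCN channel genes measured, 5 were higher and 12 lower than in corticothalamic type nuclei in every mouse, with a median log2 ratio of -0.21. Over all 6065 genes, 289 were higher and 492 lower, with a median of -0.11. Beside Kcnab1, the higher ones were Kcnip4, Kcnj3, Kcnn3 and Kcnt2. Kcnn3, a small-conductance calcium-activated channel, was at 280 ± 49.7 against 63.6 ± 30.7 CPM, while its relative Kcnn2 was at 94.6 ± 49.8 against 365 ± 49.9. The M-current gene Kcnq5 was at 139 ± 115 against 1210 ± 282 CPM, and Kcnh1, an ether-a-go-go channel, at 24.0 ± 12.8 against 192 ± 49.6. Of 23 glutamate and GABA-A receptor subunits measured, none was higher and 8 were lower in every mouse (median log2 ratio -0.38). The NMDA receptor subunit Grin2a was at 654 ± 213 against 2048 ± 440 CPM. Gabra5, a subunit of extrasynaptic GABA-A receptors, was at 199 ± 47.9 against 112 ± 33.2 and was higher in 14 of 15 mice.

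The families of the gate genes gave further contrasts. Cplx2, the complexin of most cortical excitatory neurons, was at 9.1 ± 5.5 CPM against 96.8 ± 21.4 and was lower in 15 of 15 mice, whereas Cplx1 was at 40.9 ± 12.3 against 34.0 ± 5.4. Among 12 neurexophilins, neurexins and partners measured, 1 was higher and 2 were lower in every mouse, beside 4.77% and 8.11% of all genes. With 12 genes, such counts do not set the family apart. The postsynaptic partners Nlgn1 (1332 ± 240 against 2831 ± 558 CPM) and Lrrtm4 (887 ± 385 against 2614 ± 777 CPM) were lower in every mouse. Nxph3, a relative of Nxph4, was at 24.5 ± 9.8 against 9.9 ± 3.4 CPM. Of the CCN and matrix genes, Tnr was at 362 ± 102 against 642 ± 83.1, and Reln at 93.0 ± 44.2 against 18.4 ± 24.4. Among 23 excitatory neuron genes that the study named, Nrg1, a ligand of ErbB receptors, was at 7102 ± 1143 against 2647 ± 438 CPM. Of that list 5 were higher and 4 lower in every mouse.

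The nuclei were also split by the marker pairs that let them in. With UMIs pooled over mice, Tmem163 was at 787 CPM in nuclei with Cplx3 and Ctgf, 873 in those with Nxph4 and Ctgf, 688 in those with Cplx3 and Nxph4, and 767 in those with all 3. Moxd1 was at 250, 252, 180 and 205 CPM in the same order, and Kcnab1 at 2610, 2926, 1855 and 2729. Foxp2 was at 116, 48.3, 146 and 119 CPM, lowest in the nuclei with Nxph4 and Ctgf. In the 1445 nuclei with 1 gate marker, Tmem163 was at 430, Moxd1 at 70.4 and Foxp2 at 169 CPM, between Layer 6b type and other excitatory nuclei for the first pair. The pools have no replicate error, and they hold unequal numbers of nuclei from each mouse.

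The number of Layer 6b type nuclei per mouse was 6, 2, 21, 44 and 15 in Cgas+/+, 2 and 6 in Cgas+/-, 0 and 4 in Cgas-/-, 28, 9, 0, 0, 1 and 11 in P301S Cgas+/+, 8, 12, 18, 18, 18 and 15 in P301S Cgas+/-, and 12, 36, 24, 26, 4 and 32 in P301S Cgas-/-. It was 0 in 3 mice. In P301S Cgas+/+ replicate 3, 0 of 10264 kept nuclei allows a share of up to 0.0292%, for counting error only. The median of 1483 UMIs in its other excitatory nuclei is below the 3198 UMIs of the shallowest Layer 6b type nucleus, so the limit covers nuclei that passed the gate and says little of the cells. As a share of kept nuclei, Cgas+/+ mice held a mean of 0.207% ± 0.216 (SD, n = 5). The P301S groups, of 6 mice each, held 0.0918% ± 0.127 (Cgas+/+), 0.177% ± 0.0644 (Cgas+/-) and 0.252% ± 0.132 (Cgas-/-). The groups overlapped. The tau contrast was a difference of -0.115 percentage points (exact two-sided permutation p = 0.316, adjusted p = 0.474 over 6 share tests). The deletion contrast was 0.160 (exact p = 0.0584, adjusted p = 0.175) and the heterozygous contrast 0.0848 (exact p = 0.158, adjusted p = 0.316). Within header versions 3.0.2 and 3.1.0 the tau difference was 0.164 and -0.281, the deletion difference 0.0467 and 0.217, and the heterozygous difference -0.0986 and 0.176. Nuclei were also thinned to 2000 UMIs, with the 51205 kept nuclei below that depth left out of the share, so that its denominator was 190061. This left 23 Layer 6b type nuclei, and the deletion and heterozygous differences were -0.000616 and -0.000924. Without P301S Cgas+/+ replicate 1, which held 28 of the 49 nuclei of its group, the deletion difference was 0.207 with an exact permutation p of 0.0173 and the heterozygous difference 0.132 with an exact permutation p of 0.0130, before adjustment. The deletion difference was 0.184 without P301S Cgas-/- replicate 1 (exact permutation p = 0.0498) and 0.201 without replicate 5 of that group (exact permutation p = 0.0303). The tau difference ran from -0.162 to -0.0257 over the 11 sets that left out 1 mouse.

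The share was next set against other values of the libraries. Over the 27 mice the share of Layer 6b type nuclei rose with that of layer 6 corticothalamic type nuclei (Spearman's rho = 0.68, permutation p = 0.00011, adjusted p = 0.00022; Pearson's r = 0.36, permutation p = 0.0624, adjusted p = 0.0624). Without the 2 mice farthest from the median, r was 0.58. Within the libraries of header version 3.0.2 and 3.1.0, r was 0.39 and 0.38 and rho 0.76 and 0.59. It also rose with the median UMI count of a library's kept nuclei (r = 0.65, permutation p = 0.00034, adjusted p = 0.00068; rho = 0.54, permutation p = 0.00483, adjusted p = 0.00483), with r = 0.51 without the 2 farthest mice and 0.38 and 0.72 within versions 3.0.2 and 3.1.0, where rho was 0.14 and 0.68. Corticothalamic type nuclei were 0.671% ± 0.447 of kept nuclei in the 5 Cgas+/+ mice. In the P301S groups they were 0.565% ± 0.497 (Cgas+/+), 3.06% ± 2.31 (Cgas+/-) and 2.30% ± 1.14 (Cgas-/-), with 6 mice each. Both shares have the kept nuclei of a library as their denominator. The part of dissection and of depth in the shares was not tested.

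Layer 6b type nuclei were therefore also read as a share of the deep layer nuclei, that is of Layer 6b and layer 6 corticothalamic type nuclei together. The mean was 19.6% ± 7.82 in the 5 Cgas+/+ mice. The P301S groups, of 6 mice each, were at 8.22% ± 8.25 (Cgas+/+), 9.44% ± 8.53 (Cgas+/-) and 11.4% ± 9.71 (Cgas-/-). The tau contrast was -11.3 percentage points (exact two-sided permutation p = 0.0541, adjusted p = 0.175). Within header version 3.0.2, which held males alone, the tau contrast was 3.13 and within 3.1.0 it was -19.7. The deletion contrast was 3.21 (exact permutation p = 0.567, adjusted p = 0.681) and the heterozygous contrast 1.22 (exact permutation p = 0.805, adjusted p = 0.805). Within versions 3.0.2 and 3.1.0 the deletion contrast was -7.95 and 8.80 and the heterozygous contrast -9.29 and 6.48, so that all 3 contrasts had opposite signs in the 2 versions. The deletion contrast was -0.617 without P301S Cgas-/- replicate 4, while the heterozygous contrast was -1.96 when P301S Cgas+/- replicate 5 was left out and -0.425 when either of replicates 3 and 4 of P301S Cgas+/+ was. The tau contrast passed before adjustment without P301S Cgas+/+ replicate 1 (-13.3, exact permutation p = 0.0397), replicate 6 of that group (-12.8, exact permutation p = 0.0476) or Cgas+/+ replicate 2 (-13.6, exact permutation p = 0.0381). No share test passed after adjustment over the 6.

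The share contrasts were compared between the sexes in 6 tests, of which 3 passed. Group labels were permuted within sex, so the null was no group difference in either sex. A small p therefore does not by itself show that the sexes differ. In the deletion and heterozygous contrasts, p = 0.00500 is the smallest that the 400 arrangements of this exact permutation test allow. In the 3 P301S Cgas+/+ females, 0 of 13, 0 of 19 and 1 of 38 deep layer nuclei were of Layer 6b type, whereas in the 2 Cgas+/+ females 21 of 109 and 44 of 142 were. As a share of kept nuclei, the tau difference was -0.403 percentage points in females and 0.107 in males, and the difference between the sexes passed an exact permutation test (-0.510, p = 0.0150, adjusted p = 0.0300 over 6 such tests; group labels permuted within sex). As a share of deep layer nuclei, the deletion difference was 15.7 in females and -9.27 in males (female minus male 24.975, exact permutation p = 0.00500, adjusted p = 0.0150), and the heterozygous difference was 11.8 and -9.35 (female minus male 21.1, exact permutation p = 0.00500, adjusted p = 0.0150). The other 3 tests did not pass after adjustment. They gave 0.305 (deletion, exact permutation p = 0.0600, adjusted p = 0.0600) and 0.229 (heterozygous, exact permutation p = 0.0600, adjusted p = 0.0600) for kept nuclei, and -24.0 (tau, exact permutation p = 0.0550, adjusted p = 0.0600) for deep layer nuclei. All 6 differences rest on the same 3 females. Those mice had a median of 2233, 5905 and 3516 UMIs per kept nucleus and 0.127%, 0.242% and 0.251% corticothalamic type nuclei. Their other excitatory nuclei held a median of 1483, 10416 and 7351 UMIs, in the same order. The part of depth and dissection was not tested. Since all females were read with header version 3.1.0, sex and version cannot be fully told apart.

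**Figure D4:**
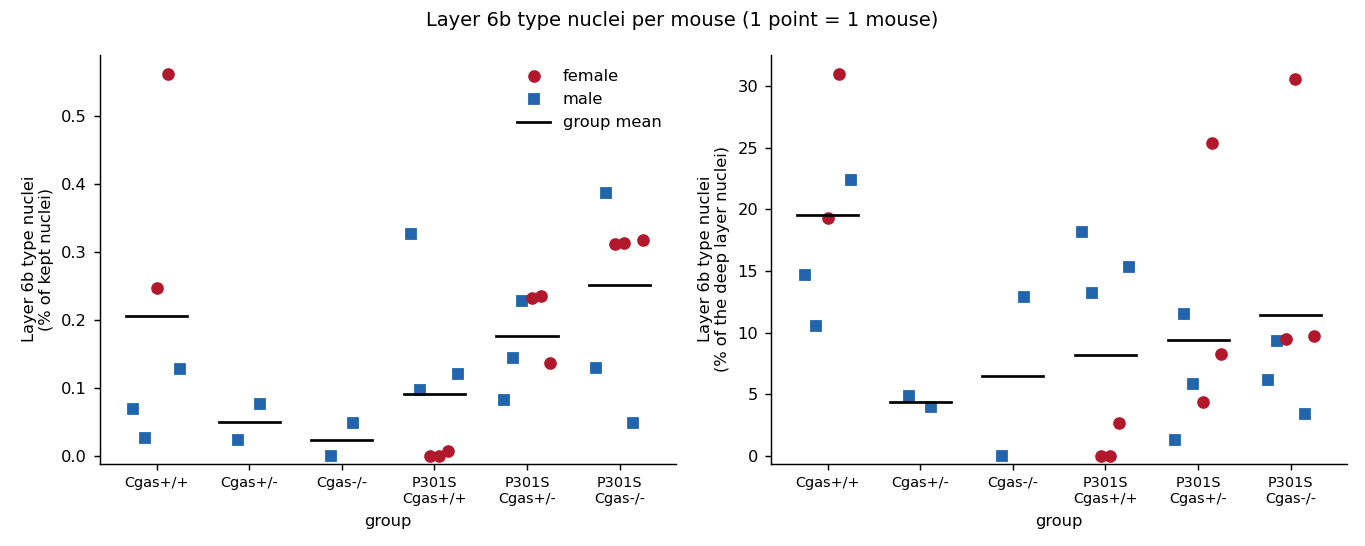
Share of Layer 6b type nuclei in each of 27 mice, by group (x axis), as % of kept nuclei (left) and as % of Layer 6b plus layer 6 corticothalamic type nuclei (right). Points are mice, shaped by sex, and lines are group means. The 3 P301S Cgas+/+ females sit at 0 to 0.00678% on the left, below every other female.

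Gene levels were compared between genotypes over the 15 mice with at least 10 Layer 6b type nuclei, which held 330 of the 372 nuclei. They were 3 Cgas+/+ mice (2 female), 2 P301S Cgas+/+ mice (both male), 5 P301S Cgas+/- and 5 P301S Cgas-/- mice, with 135615 to 638843 UMIs each. No mouse without P301S that was Cgas+/- or Cgas-/- had enough nuclei. By edgeR's quasi-likelihood test with sex as a covariate and Benjamini-Hochberg adjustment, 0 of 5404 genes (0.0%) passed in the tau contrast, 0 of 5404 (0.0%) in the deletion contrast and 0 of 5404 (0.0%) in the heterozygous contrast. Unadjusted p was under 0.05 for 237, 166 and 262 genes. DESeq2 called 3, 0 and 0 genes, the 3 being Nrp2, Unc5c and Syt17, all lower in P301S Cgas+/+. A fit with transgene and Cgas genotype as separate terms gave 0 of 4974 (0.0%), with 224 genes at an unadjusted p under 0.05 and 2 by DESeq2 (Kirrel3 and Ptprt). Since all the mice without P301S in it were Cgas+/+, its transgene term is the tau contrast again, with another low-count filter, and not a comparison of all P301S mice with none. In a fit of the 5 mice of the tau contrast alone, both females were Cgas+/+. With sex as a covariate it compared both P301S Cgas+/+ males with Cgas+/+ replicate 5 alone, so its calls are not given. A gene that missed the threshold is not shown to be equal, since the P301S Cgas+/+ group held 2 mice.

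The genes of smallest p in the tau contrast were Tmtc1, Fam19a5, Arl15, Cdh9, Pde1c, Eif2ak1, Kirrel3, Ggps1, 9530059O14Rik and Gabra5, each with a lower level in P301S Cgas+/+. Tmtc1, an O-mannosyltransferase, was at 89.3, 25.1 and 97.3 CPM in the Cgas+/+ mice and at 13.8 and 11.4 CPM in the P301S Cgas+/+ mice, on 62 and 6 UMIs in all. It was at 26.7 to 88.4 CPM in the 5 P301S Cgas+/- mice and 25.9 to 44.2 CPM in the 5 P301S Cgas-/- mice, and both P301S Cgas+/+ mice lay below all the others. Tmtc1 was picked by its p in contrasts that use these 2 mice, so this order is not separate support. How many of the genes tested show the same order was not counted. The log2 fold change was -2.93 ± 0.62 (SE) in the tau contrast (edgeR adjusted p = 0.295), 2.40 ± 0.60 in the heterozygous contrast (adjusted p = 0.91) and 1.94 ± 0.61 in the deletion contrast (adjusted p = 0.999). These contrasts share the 2 P301S Cgas+/+ mice. Without Cgas+/+ replicate 4, Tmtc1 passed in the tau contrast (log2 fold change -3.29, edgeR adjusted p = 0.00536), as did Nfia (1.55, edgeR adjusted p = 0.0293). With all 15 mice and no low-count filter, Tmtc1 passed too (-2.90, edgeR adjusted p = 0.0113).

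Fam19a5, a secreted protein of the brain, was at 101, 76.9 and 97.3 CPM in Cgas+/+ and at 41.3 and 22.7 CPM in P301S Cgas+/+ (log2 fold change -1.74 ± 0.40, edgeR adjusted p = 0.38). Kirrel3, a synaptic adhesion protein, was at 2317, 1772 and 4068 CPM in Cgas+/+, at 894 and 397 in P301S Cgas+/+, at 1488 to 2888 in P301S Cgas+/- and at 1084 to 2298 in P301S Cgas-/-. Its log2 fold change in the tau contrast was -2.24 ± 0.56 (edgeR adjusted p = 0.998). With the 2 groups of the heterozygous contrast alone, Kirrel3 passed (log2 fold change 2.03, edgeR adjusted p = 0.0172). With sex as a covariate, that fit compared the 2 P301S Cgas+/+ males with the P301S Cgas+/- males alone, replicates 2 and 3. The genes of smallest p in the deletion contrast were Atf1, Ggps1, Usp4, Tbcel, St3gal1, Ube3a, Fam184a, Vps13c, Tmtc1 and Tead1. Those of the heterozygous contrast were Tmtc1, Fam19a5, Magi1, Aff2, A330102I10Rik, Srebf2, Clmn, Itga9, Snx29 and Bbx. None passed after adjustment in the edgeR fits of all 15 mice with the low-count filter. Without that filter, Pde1c (log2 fold change -4.05, edgeR adjusted p = 0.00397) and Cdh9 (-4.68, edgeR adjusted p = 0.0134) passed in the tau contrast, beside Tmtc1.

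**Figure D5:**
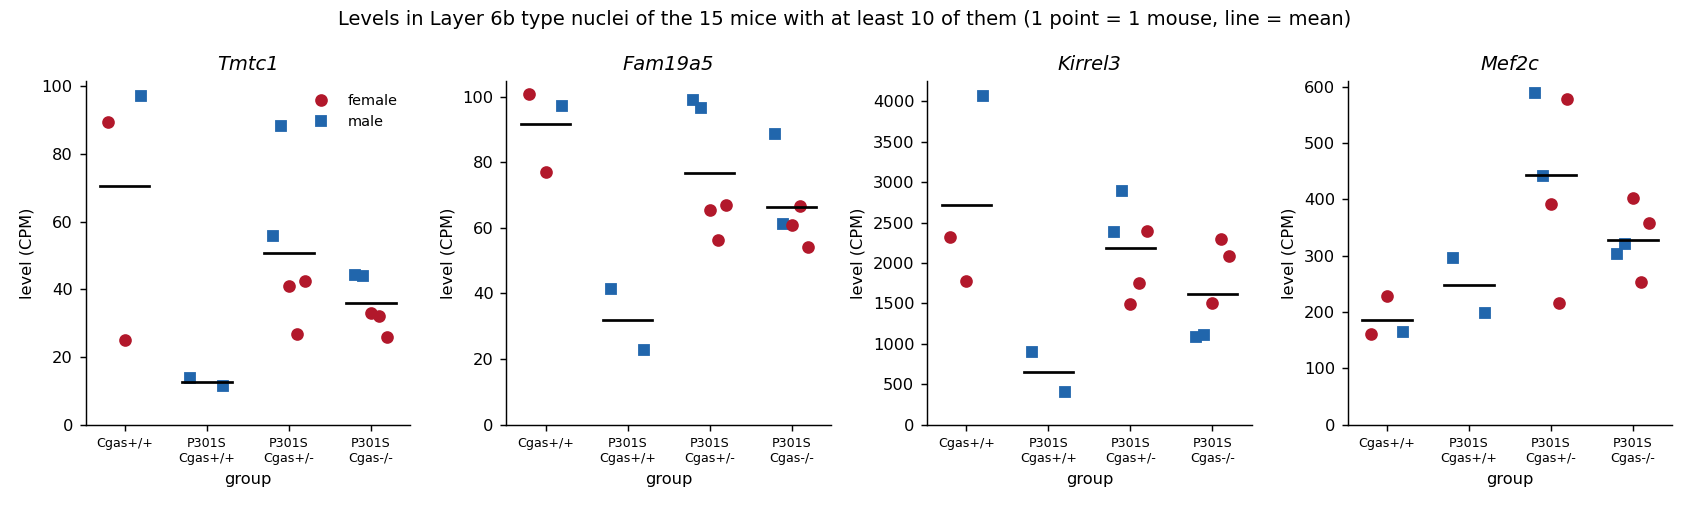
Levels of Tmtc1, Fam19a5, Kirrel3 and Mef2c (y axes, CPM) in Layer 6b type nuclei of 15 mice, by group (x axes). Points are mice, shaped by sex, and lines are means. Both P301S Cgas+/+ mice lie below every other mouse for the first 3 genes, which were picked by small p in contrasts that use these mice. For Mef2c both lie within the range of the other mice.

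Some marker sums of other neurons differed between the same mice. The Lamp5 interneuron markers summed to 152 to 212 CPM in the 3 Cgas+/+ mice and to 79.5 and 99.8 CPM in the 2 P301S Cgas+/+ mice, and the Cajal-Retzius markers, of which Reln holds most, to 122 to 173 and to 56.8 and 72.2 CPM. Reln and Ndnf are on both lists. The dentate granule markers outside the gate summed to 20.2 to 42.6 CPM and to 0 and 3.4 CPM. In P301S Cgas+/- mice they summed to 0 to 54.7 CPM, which spans both groups, and in P301S Cgas-/- mice to 6.26 to 21.2 CPM. The layer 6 corticothalamic markers summed to 941 to 948 and to 1027 and 1190 CPM, higher in P301S Cgas+/+. The excitatory neuron markers outside the gate summed to 474 to 558 and to 437 and 448 CPM. None of these sums overlapped between the groups, but with 3 and 2 mice sums can stand apart by chance. They were shown because they stood apart, and the sums of the other lists overlapped. The astrocyte markers summed to 1614 to 1846 and to 1541 and 1725 CPM, and the inhibitory markers to 42.6 to 85.3 and to 45.4 and 114 CPM. In P301S Cgas+/- mice the corticothalamic markers summed to 818 to 1167 CPM and the excitatory markers to 406 to 693 CPM, which overlaps both groups. The layer 5 and near-projecting markers summed to 461 to 1375 and to 227 and 526.4 CPM, with a median log2 fold change of -1.70 over the 4 tested, all lower. Their part in the tau contrast was not tested.

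By edgeR's quasi-likelihood test no list member was called in the 3 contrasts. Without the low-count filter, where 6 of 18219 genes passed in the tau and 9 in the heterozygous contrast, Htr2a passed in the tau contrast (edgeR adjusted p = 0.0134), and Kcnd3 (edgeR adjusted p = 0.0222) and Htr1f (edgeR adjusted p = 0.0432) in the heterozygous contrast. The fit of the 2 groups of the tau contrast alone compared both P301S Cgas+/+ males with Cgas+/+ replicate 5 alone. Its calls, and the fold changes of members picked by them, are therefore not given. The 10 layer 6b markers outside the gate had a median log2 fold change of -0.07 in the tau contrast (4 higher, 6 lower), 0.10 in the deletion contrast (7 higher, 3 lower) and 0.00 in the heterozygous contrast (5 higher, 5 lower), beside -0.03, 0.02 and 0.01 over all genes tested. The lowest values in the tau contrast were those of Moxd1, at -1.08 ± 0.53 (edgeR adjusted p = 0.998), and Lpar1, at -1.05 ± 0.46 (edgeR adjusted p = 0.998). Potassium and HCN channels had a median of -0.22 in the tau contrast, with 22 of 30 lower, and glutamate and GABA-A receptor subunits -0.17, with 16 of 23 lower. Of all 5404 genes tested, 2842 were lower in the tau contrast and 2792 were higher in the deletion contrast. The 23 excitatory neuron genes named by the study had a median of -0.27 in the tau contrast, with 18 lower, and 0.11 in the deletion contrast, with 15 higher. The study chose part of the list on these libraries and part in another experiment, so it is not independent evidence of a direction. Mef2c, one of its members, was at 161, 229 and 164 CPM in Cgas+/+, at 296 and 199 in P301S Cgas+/+, at 589, 442, 393, 216 and 577 in P301S Cgas+/- and at 302, 321, 403, 253 and 358 in P301S Cgas-/-. Its log2 fold change was 0.29 ± 0.35 in the tau contrast (edgeR adjusted p = 0.998), 0.47 ± 0.31 in the deletion contrast (edgeR adjusted p = 0.999) and 0.85 ± 0.31 in the heterozygous contrast (edgeR adjusted p = 0.99).

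The transcripts that track the transgene and the deleted gene were sparse in this set. Gm43049, a transcript listed for the transgene from earlier results of these data, had 55 UMIs in 14 of 18 P301S libraries (14.2 CPM) and 0 UMIs in the 9 libraries without P301S, where 1340373 UMIs were read. Among P301S groups it was at 11.8, 13.8 and 15.1 CPM pooled in Cgas+/+, Cgas+/- and Cgas-/-. The endogenous tau gene Mapt was at 440 CPM pooled in P301S libraries and 455 CPM in the others. The sensor gene, listed as Mb21d1, had 1 UMI in all 372 nuclei, in a P301S Cgas-/- library, and Tmem173, which encodes STING, had 0, so that neither the deletion nor its target could be read here. Of 45 interferon genes, 1 (Stat2) passed the low-count filter, at 40.9 ± 16.7 CPM, with log2 fold changes of 0.21, 0.24 and 0.22 in the tau, deletion and heterozygous contrasts. Of 20 activity-regulated genes 7 were tested, with medians of 0.01, 0.21 and -0.19. Homer1, a postsynaptic scaffold induced by activity, had a log2 fold change of 0.98 ± 0.33 in the tau contrast (edgeR adjusted p = 0.998).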

How the data were processed

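The authors aligned reads of Chromium 3' v3 libraries to mm10, including pre-mRNA, with Cell Ranger (3.1.0 per the labels; file headers give 3.0.2 in 12 libraries and 3.1.0 in 15), and deposited filtered matrices of raw UMI counts per gene and nucleus. From 241938 barcodes, 241266 nuclei passed the limits on genes and mitochondrial UMIs. The study's cap of 4000 genes, its doublet removal and its clustering were not applied, and Scrublet doublets (14 of the 372 nuclei) were removed as an alternative. UMI counts were summed per mouse, and 10 gate genes were left out of tests. Mice with at least 10 nuclei entered edgeR 4.0.16 (quasi-likelihood, TMM, filterByExpr, sex as covariate, threshold 0.05); DESeq2 1.42.0 was an alternative. The scripts were tested on simulated data. Shares were compared by exact permutation over mice, and intervals and limits cover counting error only. Levels are CPM, with ratios as log2 of CPM plus 1. Genes were named by rule: the 10 of smallest p per contrast, the 20 and 10 leading genes against the other sets at 20 CPM or more, and members of fixed lists. Genes were placed by identifier in GENCODE vM21 (31011 of 31053 matched). The members and lists were chosen with earlier results of these data known. The labels do not say how mice were related or when libraries were run. A few list members and leading genes are not reported here.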

Additional observations from a re-analysis of the deposited data

Results flagged for a closer look

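A sample far from its group was sought in 36 sets of 4 to 10 mice, of which chance flags about 1 in 20, and 3 were found. P301S Cgas+/+ replicate 1 held Layer 6b type nuclei at 0.328% of kept nuclei (exact binomial 95% interval 0.218% to 0.473%), against at most 0.120% in the other 5 mice of its group. P301S Cgas-/- replicate 4 held them at 30.6% of its 85 deep layer nuclei, against at most 9.70% in the other 5. Kcnab1 was at 3065 CPM in P301S Cgas+/- replicate 3, against at most 2604 CPM in the other 4.

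Differences between the sexes in 3 results, out of 6 tested, passed an exact permutation test with group labels permuted within sex. Its null was no group difference in either sex, so it does not test the difference between the sexes alone. The tau contrast in the share of kept nuclei differed between females and males by -0.510 percentage points (exact permutation p = 0.0150). The deletion contrast in the share of deep layer nuclei was higher in females by 24.975 points (exact permutation p = 0.00500), and the heterozygous contrast by 21.1 points (exact permutation p = 0.00500). All rest on the 3 P301S Cgas+/+ females, with 0, 0 and 1 Layer 6b type nuclei.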

How the results depend on the processing

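Share differences are in percentage points, and p-values here are exact permutation p-values before adjustment. With nuclei thinned to 2000 UMIs and shallower ones left out, 23 Layer 6b type nuclei were left. The differences were then -0.000616 (kept nuclei, deletion), -0.000924 (kept, heterozygous), -1.54 (deep layer, deletion) and -3.38 (deep layer, heterozygous). With at most 4000 genes the deep layer heterozygous difference was -0.425, and the tau difference was -11.3 with an exact permutation p of 0.0411. Requiring all 3 markers gave kept-nuclei differences of 0.0327 (deletion, exact permutation p = 0.0238) and 0.0233 (heterozygous, exact permutation p = 0.00649), and permuting within sex gave 0.160 (deletion, exact permutation p = 0.0450). Leaving out 1 mouse at a time, the kept-nuclei differences ran from 0.133 to 0.207 (deletion) and 0.0664 to 0.132 (heterozygous), and the deep layer differences from -13.6 to -8.48 (tau), -0.617 to 5.21 (deletion) and -1.96 to 3.21 (heterozygous). The number of genes called in the tau contrast was 3 with DESeq2, 6 without a low-count filter, 36 with its 2 groups alone and 0 to 2 with 1 mouse left out. In the heterozygous contrast it was 9 without a filter and 3 with its 2 groups alone, and for the transgene term beside Cgas genotype, which repeats the tau contrast, it was 2 with DESeq2, 6 without a filter and 0 to 2 with 1 mouse left out. The cause was not tested. The other 62 values kept their direction and side of the threshold. They include permutation within software version, added after seeing the data, which keeps each pooled difference by construction, whereas the differences within the 2 versions had opposite signs for 5 of 6 share results.

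No paired analysis was possible because the labels give each mouse its own identifier and no number shared between groups. Counts with all 3 markers or at least 30 nuclei per mouse could not be fitted, for want of mice, and no run label was found to permute within. Depth limits these results, as Layer 6b type nuclei were deeper than corticothalamic type nuclei in 15 of 15 mice, and Mb21d1 had 1 UMI in all.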
